A study of Drosophila melanogaster with 6 samples.

Results

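The genes described here are 10 secreted proteins of hemocytes, the blood cells of Drosophila: the laminin chain genes LanA, LanB1 and LanB2, the collagen IV genes Col4a1 and vkg, the matrix genes Pxn, SPARC, Ppn and Tig, and the clotting gene Hml. They were chosen by their FlyBase symbols from the 16451 genes in the files, by a rule that uses no measured value. The choice was made with earlier results of these data known. All 10 passed the filter on low counts that left 8955 genes for testing. RNA was measured by sequencing in S2 cells, an embryo-derived Drosophila melanogaster line with hemocyte character, labelled wild type and grown in Schneider's medium with 10% fetal bovine serum. A stressed group of 3 libraries received 10 mM H2O2 for 30 min at 25 °C, and a control group of 3 libraries received an equal volume of medium instead. The labels do not state that the replicates are separate cultures, and p-values therefore describe the spread among these 6 libraries, part of which may be technical. All libraries come from a single cell line in culture, so they hold no other tissue and no intact basement membrane.

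The basement membrane is a thin sheet of matrix under epithelia and around muscle, fat body and other organs. Laminin trimers of an alpha, a beta and a gamma chain bind cell-surface receptors and start its assembly, and collagen IV trimers give it tensile strength. In the fly, plasmatocytes, the macrophage-like hemocytes, and the fat body secrete much of its collagen IV, and hemocytes also lay down laminin, papilin and peroxidasin as they migrate through the embryo. The same cells secrete hemolectin, which takes part in hemolymph clotting.

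Library totals were 35404927 to 42043808 expected counts after H2O2 and 36806499 to 39253171 in controls. An expected count is an estimate of the reads from a gene, with shared reads divided by probability. The 8 hemocyte markers srp, ush, Pvr, NimC1, eater, crq, He and Sr-CI were all present at a mean of at least 1 TPM (a level corrected for transcript length), and none of the 8 was called in the comparison of the groups in edgeR. One of them, the phagocytosis receptor gene eater, was lower once the replicate number was fitted as a block (log2 fold change −0.23, adjusted p = 0.0408 in edgeR), but not with the length trend described below removed as well (−0.11, adjusted p = 0.351). The same holds for elav of the neuron list and cher of the lamellocyte list, with log2 fold changes of −0.45 and −0.49 in the first of these fits and −0.13 and −0.18 in the second. In contrast, brp of the neuron list was not called in the first fit (−0.13, adjusted p = 0.208 in edgeR). It was called higher in the second (0.34, adjusted p = 0.0154 in edgeR). The summed level of the 8 hemocyte markers was 1919 to 2158 CPM (a count scaled to library size, not corrected for length) after H2O2 and 1917 to 2393 CPM in controls. The hemocyte list also held the matrix genes Hml, Pxn, Col4a1 and vkg, which are left out of this sum and described below. Their log2 fold changes were −0.72, −0.15, −0.37 and −0.30 in edgeR. Hml, Col4a1 and vkg were called lower with the block. Markers of crystal cells (lz, PPO1, PPO2) summed to at most 0.167 CPM and markers of fat body (Lsp1alpha, Lsp2, Fbp1, Yp1) to at most 0.286 CPM in any library, with PPO2 and Lsp1alpha at 0. Muscle markers (Mhc, up, Act88F) summed to 0.71 to 1.53 CPM after H2O2 and 0.913 to 1.05 CPM in controls. Of the lamellocyte markers, atilla was near 0, while PPO3 and the broadly used filamin gene cher brought the sum to 572 to 596 CPM after H2O2 and 649 to 1045 CPM in controls. The neuron list of elav, nSyb and brp summed to 38.8 to 51.1 CPM after H2O2 and 47.5 to 60.2 CPM in controls. The part of these differences in the results below was not tested.

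Together the 10 genes took 1.51%, 1.61% and 1.46% of all expected counts in H2O2 replicates 1, 2 and 3, against 1.84%, 2.16% and 2.14% in control replicates 1, 2 and 3. Their share of TPM, which corrects for length, was 0.368%, 0.433% and 0.379% after H2O2 and 0.405%, 0.511% and 0.498% in controls. The H2O2 libraries lay below every control library for the counts, and the groups overlapped for the TPM.

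By TPM, SPARC was the most abundant of the 10 genes in both groups, at 2123 ± 377 TPM after H2O2 and 2053 ± 461 TPM in controls (SD, n = 3 each). It ranked 89 among all genes in both groups. In controls the order went on with LanA (518 ± 54.2 TPM), Hml (500 ± 90.7), Pxn (422 ± 110), Col4a1 (346 ± 26.1), LanB1 (335 ± 5.88), LanB2 (315 ± 18.5), vkg (156 ± 19.0), Tig (59.6 ± 8.15) and Ppn (8.43 ± 1.63). After H2O2, Pxn stood second (357 ± 132 TPM), followed by LanA (293 ± 24.2), Hml (287 ± 25.7), Col4a1 (248 ± 28.0), LanB1 (235 ± 6.78), LanB2 (221 ± 4.44), vkg (119 ± 11.8), Tig (44.4 ± 5.03) and Ppn (7.04 ± 0.546). From the second to the sixth place, the libraries of neighbours in the order overlapped in both groups, although LanA and Hml each lay above LanB1 with no overlap in either group. SPARC at the top, and LanB2, vkg, Tig and Ppn at the bottom, were separated from their neighbours in each group.

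**Figure D1:**
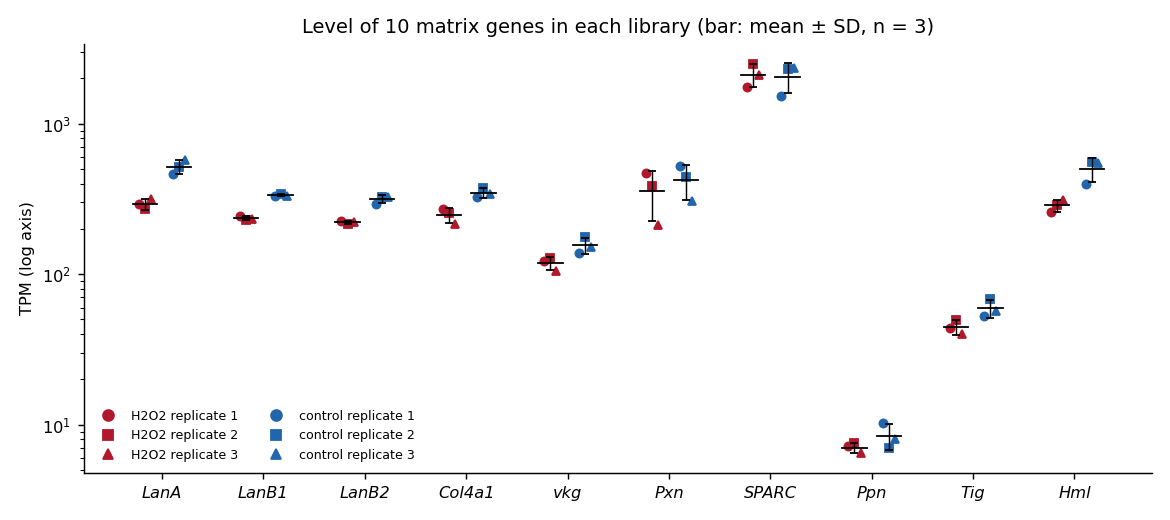
Level of each gene in TPM (vertical log axis) in each library, with H2O2 libraries in red left of control libraries in blue, a marker shape for each replicate number, and black bars for the mean ± SD (n = 3). SPARC has the highest points (means of 2123 TPM after H2O2 and 2053 TPM in controls) and Ppn the lowest (means of 7.04 TPM after H2O2 and 8.43 TPM in controls). LanA, LanB1, LanB2, Col4a1, vkg, Tig and Hml have red points below all blue ones.

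The laminin chains had lower counts after H2O2, and LanA, the alpha chain, was the 1 gene of the 10 that passed the test. LanA (FBgn0002526, chromosome 3L, 6203831 to 6218022) had 3191, 3162 and 3420 CPM in H2O2 replicates 1, 2 and 3, against 4741, 5498 and 6034 CPM in control replicates 1, 2 and 3. The groups did not overlap, and the H2O2 libraries lay close together. LanA fell by 0.74 on the log2 scale, a change of −39.9% (SE 0.12, edgeR quasi-likelihood test, Benjamini-Hochberg adjusted p = 0.0282 over all genes). This call was lost when any library other than control replicate 1 was left out, with adjusted p between 0.0644 and 0.118 and fold changes between −0.78 and −0.66. Without H2O2 replicate 2, control replicate 2 or control replicate 3, no gene tested passed, so the loss there is not particular to LanA. LanB1, the beta chain (FBgn0261800, chromosome 2L, 7811438 to 7820771), had 1350, 1362 and 1274 CPM after H2O2 and 1727, 1852 and 1782 CPM in controls. LanB2, the gamma chain (FBgn0267348, chromosome 3L, 9614914 to 9623980), had 1197, 1227 and 1150 CPM after H2O2 and 1454, 1666 and 1672 CPM in controls. Neither gene overlapped between the groups. Their log2 fold changes were close, −0.43 for LanB1 (SE 0.10, adjusted p = 0.0769 in edgeR) and −0.42 for LanB2 (SE 0.11, adjusted p = 0.10 in edgeR).

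The collagen IV genes lie head to head on chromosome 2L, with Col4a1 (FBgn0000299, alpha 1 chain, plus strand, 5029609 to 5037279) and vkg (FBgn0016075, alpha 2 chain, minus strand, 5012144 to 5028191) separated by 1417 bases. Col4a1 had 1511, 1527 and 1183 CPM after H2O2 and 1665, 1998 and 1788 CPM in controls, and vkg had 724, 808 and 610 CPM after H2O2 and 761, 1007 and 864 CPM in controls. All H2O2 libraries were lower than all controls for Col4a1, while the groups overlapped for vkg. Neither passed edgeR's test, with log2 fold changes of −0.37 (SE 0.14, adjusted p = 0.288) for Col4a1 and −0.30 (SE 0.16, adjusted p = 0.491) for vkg. Within a replicate number, both genes differed least in number 1 (−0.14 for Col4a1 and −0.07 for vkg on the log2 scale) and most in number 3 (−0.60 and −0.50).

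Peroxidasin, the product of Pxn, cross-links collagen IV, and SPARC is a collagen-binding matrix glycoprotein. Pxn (FBgn0011828, chromosome 3L, 2601455 to 2630064) had 2131, 1873 and 946 CPM in H2O2 replicates 1, 2 and 3, against 2220, 1952 and 1336 CPM in control replicates 1, 2 and 3. Its level followed the replicate number more than the group: number 1 was highest and number 3 lowest in both groups, and the log2 fold change of −0.15 had an SE of 0.32 (adjusted p = 0.925 in edgeR). SPARC (FBgn0026562, chromosome 3R, 26869238 to 26871995) had 1568, 2406 and 1867 CPM after H2O2 and 1272, 1999 and 1998 CPM in controls. Replicate 1 was the lowest in both groups, and the log2 fold change was 0.15 (SE 0.23, adjusted p = 0.888 in edgeR), the 1 positive value among the 10 genes.

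Hml, the hemolectin gene and a standard plasmatocyte marker (FBgn0029167, chromosome 3L, 13846054 to 13860001), had 2861, 3420 and 3353 CPM after H2O2 and 4058, 5917 and 5845 CPM in controls. The groups did not overlap, but control replicate 1 lay far below the other controls. The log2 fold change was −0.72 (SE 0.17, adjusted p = 0.0817 in edgeR), and without control replicate 1 it was −0.88 and passed (adjusted p = 0.0461). Tig encodes tiggrin, a matrix ligand of integrins (FBgn0011722, chromosome 2L, 6415179 to 6423310), and had 284, 346 and 254 CPM after H2O2 and 322, 434 and 356 CPM in controls. Its groups overlapped, and the log2 fold change was −0.33 (SE 0.17, adjusted p = 0.468 in edgeR). Ppn encodes papilin, a proteoglycan-like matrix glycoprotein (FBgn0003137, chromosome 3R, 28520665 to 28540324), and had 58.9, 66.0 and 51.5 CPM after H2O2 and 78.0, 55.7 and 63.7 CPM in controls. The groups overlapped, replicate 2 was higher after H2O2 and the other replicates lower, and the log2 fold change was −0.16 (SE 0.16, adjusted p = 0.80 in edgeR).

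In all, 1 of the 10 genes was called lower and 0 higher, where 0.57% of all genes tested were called lower and 2.57% higher. At an unadjusted p under 0.05, 5 of the 10 passed in edgeR, against 14.0% of all genes tested, and DESeq2 called 4 lower (LanA, LanB1, LanB2 and Hml) and 0 higher, against 2.96% of all genes lower and 3.81% higher with that tool. Fold changes were negative in 9 of the 10 genes, against 45.2% of all genes tested, with a median log2 fold change of −0.35 for the 10 and 0.02 for all genes tested. By CPM, in 5 of the 10 (LanA, LanB1, LanB2, Col4a1 and Hml) every H2O2 library was lower than every control, which held for 10.4% of all genes tested. In none was every H2O2 library higher by CPM, which held for 9.98%. By TPM every H2O2 library was lower for vkg and Tig as well, a scale on which the share of all genes was not computed. Each library is bulk RNA, so fewer cells that make a transcript and less of it per cell cannot be told apart.

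Same-numbered libraries varied together across genes, and the replicate number was therefore also fitted as a block. With the block, 7 of the 10 genes were called lower and 0 higher in edgeR, against 12.8% of all genes tested lower and 8.99% higher. These were LanA (−0.73, adjusted p = 0.000116), Hml (−0.70, 0.000195), LanB1 (−0.43, 0.00168), LanB2 (−0.42, 0.00273), Tig (−0.33, 0.0113), Col4a1 (−0.37, 0.0127) and vkg (−0.30, 0.0328). Pxn (−0.21, adjusted p = 0.143), Ppn (−0.16, 0.415) and SPARC (0.16, 0.224) were not called. The block hardly moved the fold changes but lowered the SE, for example to 0.09 from 0.32 for Pxn and to 0.08 from 0.17 for Hml.

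Fold changes in these libraries ran with transcript length, and 9 of the 10 matrix genes are long. Length classes were formed from the genes whose mean reached 5 CPM. In the class of SPARC (1143 nt), 2394 genes of 1000 to 2000 nt, the middle log2 fold change was 0.07. It was −0.27 for the 702 genes of 4000 to 6000 nt, which include Pxn and LanB2, and −0.41 for the 215 genes of 6000 to 8000 nt, which include Col4a1, vkg, Tig and LanB1. It reached −0.52 for the 84 genes of 8000 to 10000 nt, the class of Ppn, and −0.63 for the 64 genes over 10000 nt, the class of LanA (11690 nt) and Hml (11755 nt). In that longest class 34.4% of genes were called lower without the block and 92.2% with it. In the class of Col4a1, vkg, Tig and LanB1, 87.4% were called lower with the block.

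A trend of each library's values on length was then fitted over all genes tested and removed. The trend alone amounted to −0.56 at the length of LanA and Hml, −0.46 at that of Ppn, between −0.38 and −0.25 at those of Pxn, LanB2, Col4a1, LanB1, vkg and Tig, and 0.13 at that of SPARC. With the trend removed, LanA had a log2 fold change of −0.17 (SE 0.11), Hml −0.14 (SE 0.14), LanB1 −0.11 (SE 0.12) and LanB2 −0.11 (SE 0.11), and 0 of the 10 genes were called in edgeR, where 0.112% of all genes were called lower and 2.28% higher. None of the 10 had an unadjusted p under 0.05 in that fit, against 8.44% of all genes tested. With both the block and the length trend, 0 of 10 were called by edgeR against 1.62% of all genes lower and 5.99% higher, and 2 of the 10 had an unadjusted p under 0.05, against 20.7% of all genes tested. These were LanA (−0.17, SE 0.05, adjusted p = 0.103) and Hml (−0.14, SE 0.06, adjusted p = 0.203). The median of the 10 genes was then −0.012, and that of all genes tested −0.0051. Ppn lay above its length class, with 0.28 (SE 0.20) without the block and 0.30 (SE 0.17, adjusted p = 0.418 in edgeR) with it. The trend was estimated from these same libraries, so it also takes up any change that long transcripts share.

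**Figure D2:**
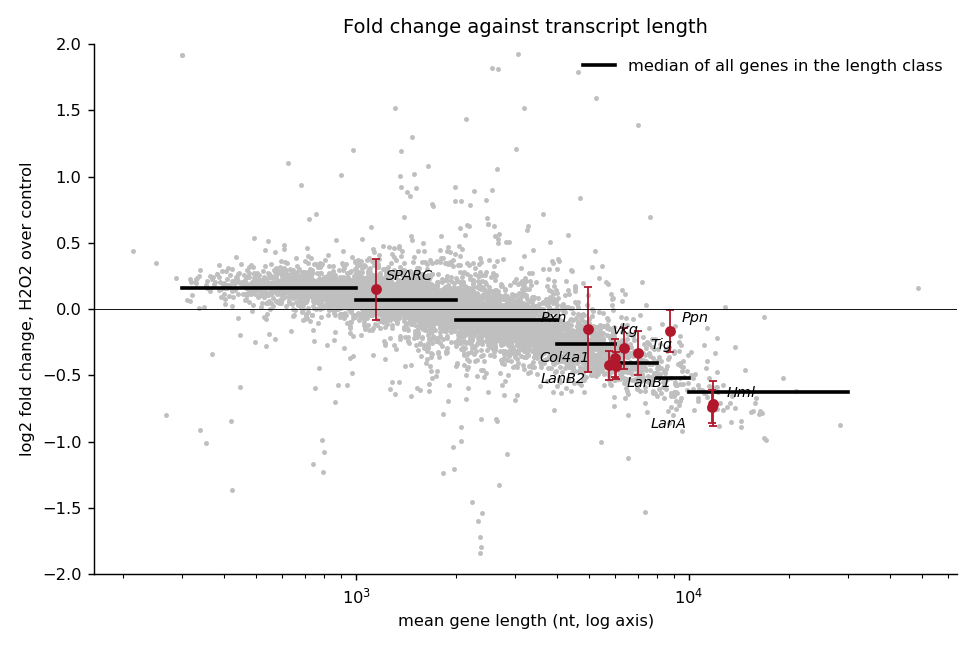
Log2 fold change of H2O2 over control (edgeR, vertical axis, limited to −2 to 2, so that genes beyond it are not drawn) against mean gene length in nt (log axis). Grey points are genes whose mean reached 5 CPM, black lines the medians of the length classes, and red points the matrix genes ± SE. SPARC, at 1143 nt, lies near 0, LanA (11690 nt) and Hml (11755 nt) lie at −0.74 and −0.72 close to the median of −0.63 for their class, and Ppn lies above its class median of −0.52.

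**Figure D3:**
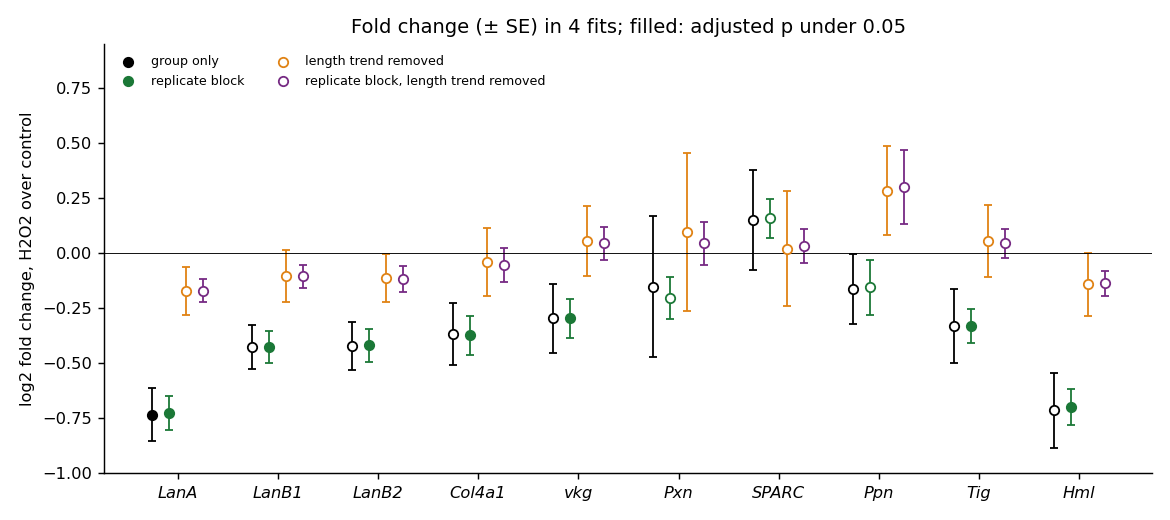
Log2 fold change of H2O2 over control ± SE for each matrix gene in 4 edgeR fits, with filled points where the adjusted p was under 0.05. One point is filled with the group as the only term (LanA) and 7 with the replicate block, and none is filled in the fits with the length trend removed, where the points lie between −0.17 and 0.30.

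The likeness of the genes' profiles over the 6 libraries was measured as the distance between centred log2 CPM values, as a description with no test. The nearest gene to LanB1 was LanB2 and the reverse (distance 0.114), the nearest to vkg was Tig and the reverse (0.110), and the nearest to Col4a1 was vkg (0.174). LanA and Hml, the longest transcripts of the 10, were nearest to each other (0.305). The most distant pairs were Pxn with SPARC and Pxn with Hml (both 1.48). All profiles share the same libraries, and for most of the genes the length trend as well.

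Ratios of partner transcripts within a library ask whether the chains of a trimer kept their proportions. LanA had 1.2, 1.18 and 1.36 TPM per TPM of LanB1 in H2O2 replicates 1, 2 and 3, against 1.40, 1.51 and 1.72 in control replicates 1, 2 and 3. The H2O2 values were all lower than the controls, and the mean log2 ratio differed by −0.31 (exact two-sided permutation p = 0.10, the smallest that 3 against 3 libraries allow, and 0.30 adjusted over 3 ratios). The gamma and beta chains stayed close to equal: LanB2 over LanB1 was 0.928, 0.943 and 0.945 after H2O2 and 0.886, 0.946 and 0.988 in controls, a log2 difference of −0.0010 (exact permutation p = 0.90). Col4a1 over vkg was 2.21, 2.0 and 2.05 after H2O2 and 2.34, 2.13 and 2.22 in controls. The groups overlapped, and the log2 difference was −0.10 (exact permutation p = 0.20, adjusted 0.30), with −0.08, −0.09 and −0.11 within replicate numbers 1, 2 and 3. LanA (11690 nt) is far longer than LanB1 (6037 nt), and the length trend alone was −0.56 for LanA and −0.32 for LanB1. The lengths of Col4a1 (6008 nt) and vkg (6379 nt), and of LanB1 and LanB2 (5762 nt), are closer.

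**Figure D4:**
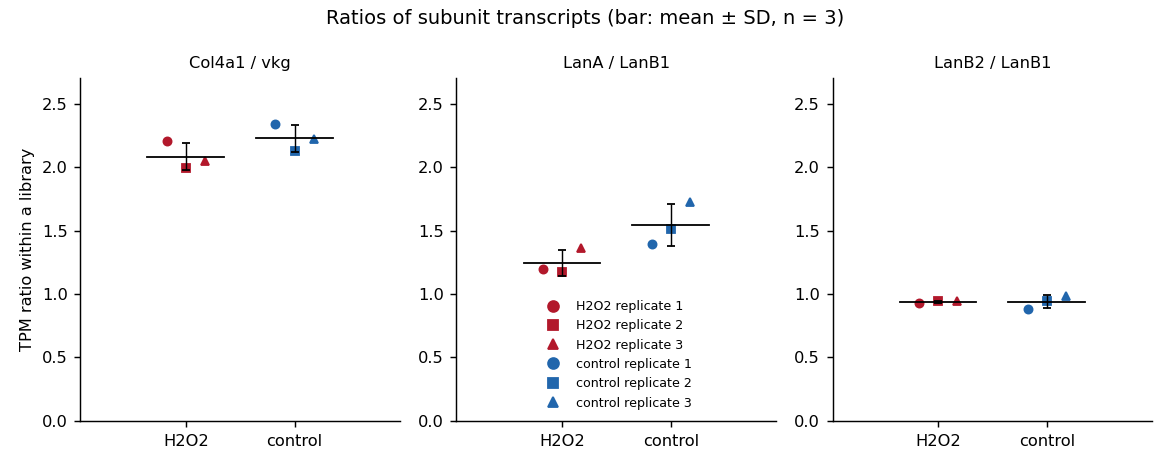
Ratio of TPM values within each library (vertical axis) for Col4a1 over vkg, LanA over LanB1 and LanB2 over LanB1, with H2O2 left of control and black bars for the mean ± SD (n = 3). LanA over LanB1 is 1.24 ± 0.101 after H2O2 and 1.54 ± 0.166 in controls with no overlap, while LanB2 over LanB1 is 0.938 ± 0.00955 after H2O2 and 0.940 ± 0.0513 in controls.

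The files also give each gene's length as a mean over its transcripts weighted by their estimated abundance, which moves only where the estimated isoform shares move. In 6 of the 10 genes it varied by at most 5 nt, and in Ppn the groups overlapped (8743 to 8818 nt after H2O2 and 8748 to 8823 nt in controls). LanB1, Col4a1 and Pxn differed between the groups with no overlap, each at exact permutation p = 0.10, the smallest possible, and 0.133 adjusted over the 4 genes that varied. LanB1 has 2 annotated transcripts, which encode the same protein length and differ in the first exon: a distal exon of 335 nt at 7811438 to 7811772 and a proximal exon of 47 nt at 7814354 to 7814400. The share of the distal transcript computed from the length was 26.0%, 24.1% and 26.9% after H2O2, against 37.2%, 35.6% and 37.3% in controls. The groups were far apart relative to the spread within each, 25.6 ± 1.45% after H2O2 and 36.7 ± 0.978% in controls (SD, n = 3 each), with exact permutation p = 0.10. In levels, the distal transcript had 60.4 ± 4.48 TPM after H2O2 and 123 ± 1.16 TPM in controls, and the proximal one 175 ± 4.44 TPM after H2O2 and 212 ± 7.03 TPM in controls (SD, n = 3 each).

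Col4a1 was longer after H2O2, at 6047, 6052 and 6043 nt, against 5986, 5963 and 5960 nt in controls. Its 3 annotated transcripts share 1 coding length of 5337 nt and differ at both ends. The transcripts of 5635, 6000 and 6101 nt have 5′ UTRs of 102, 283 and 219 nt and 3′ UTRs of 193, 377 and 542 nt. A mean above 6000 nt requires the longest one, which must then make up at least 46.4%, 51.5% and 42.9% of Col4a1 transcripts in H2O2 replicates 1, 2 and 3, while the control lengths set no lower limit above 0. Pxn was shorter after H2O2, at 4935, 4949 and 4946 nt, against 4983, 4989 and 4977 nt in controls, and its 5 transcripts leave the shares undetermined. The split of reads between these transcripts was estimated by the authors' software, so the accuracy of these shares was not tested.

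**Figure D5:**
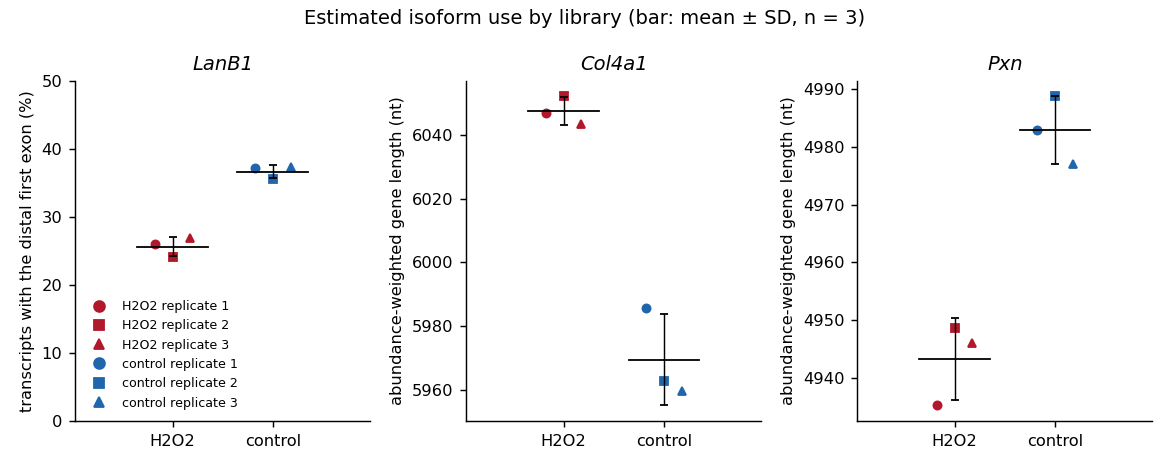
Estimated share of LanB1 transcripts with the distal first exon (left, in %), and abundance-weighted gene length in nt of Col4a1 (middle) and Pxn (right), with H2O2 left of control and black bars for the mean ± SD (n = 3). The length axes do not start at 0. The distal LanB1 share is 25.6 ± 1.45% after H2O2 and 36.7 ± 0.978% in controls, Col4a1 is 6047 ± 4.37 nt after H2O2 and 5969 ± 14.3 nt in controls, and Pxn is 4943 ± 7.09 nt after H2O2 and 4983 ± 5.86 nt in controls.

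Directly behind Col4a1, an almost silent interval had more reads after H2O2. SP555 and CG14042 are annotated on the same 3110 bases of the plus strand (chromosome 2L, 5037709 to 5040818), 430 bases beyond the 3′ end of Col4a1. Their reads cannot be divided with confidence, with a posterior SD of up to 82.3% of the count for CG14042, so their sum is given: 1.59, 2.08 and 1.65 CPM after H2O2, against 0.269, 0.238 and 0.359 CPM in controls. The sum rests on 209 reads in the H2O2 libraries and 32 in the controls, and the groups did not overlap. In all 3 controls both genes lay under the 0.267 CPM that the low-count filter asks for, so they entered the test only through the H2O2 libraries, and a call made on that condition is no independent support. Their log2 fold changes were 2.51 for SP555 (SE 0.34, adjusted p = 0.0151) and 2.75 for CG14042 (SE 0.40, adjusted p = 0.0186) in edgeR. Neither passed when control replicate 1, 2 or 3 or H2O2 replicate 2 was left out (adjusted p from 0.0517 to 0.0867), with fold changes between 2.30 and 3.04. Of these fits, those without H2O2 replicate 2, control replicate 2 or control replicate 3 passed no gene at all.

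Of the 10 genes, 8 had a same-strand neighbour within 5 kb downstream, and LanA and Hml had none. Over the 10 neighbours tested, 2 were called higher and 0 lower, against 2.57% of all genes tested higher and 0.57% lower. Those 2 are SP555 and CG14042, which share 1 interval and so are not separate loci. CG31051, 150 bases behind Ppn, had 1.17, 1.12 and 1.01 CPM after H2O2 and 0.725, 0.106 and 0.332 CPM in controls. These groups did not overlap, and the log2 fold change of 1.5 did not pass (SE 0.56, adjusted p = 0.271 in edgeR) but passed with the block (1.59, adjusted p = 0.0261) and not with block and length trend both fitted (1.45, adjusted p = 0.0978). CG31051 met the low-count filter in all 3 H2O2 libraries but in 2 controls. The controls alone would not have met the filter, so these p-values are no independent support. The other 7 neighbours, with control means of 1.86 CPM or more, had log2 fold changes between −0.23 and 0.43. Among those 7, the 2 behind vkg share 1 interval and have identical counts. Pxn and Tig overlap other annotated genes, 4 and 1 in number, and the strand setting of the counting was not given in the sources used here. Of these, lncRNA:CR45981, inside Pxn on the same strand and named after its values were seen, had 0.307, 0.167 and 0.127 CPM after H2O2 and 1.02, 0.713 and 0.581 CPM in controls. Its groups did not overlap (−1.95, adjusted p = 0.0607 in edgeR, and 0.00161 with the block), on 23 reads in the H2O2 libraries and 86 in the controls. It met the low-count filter in all 3 controls but in 1 H2O2 library. It thus entered the test through the controls, and these p-values are no independent support.

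Among 34 related matrix genes in 4 lists, 30 were tested, with 1 called higher and 1 lower. Of all genes tested, 2.57% were called higher and 0.57% lower. The lower related gene was trol, the gene of the heparan sulfate proteoglycan perlecan, with 57.2, 63.5 and 54.5 CPM after H2O2 and 90.2, 111 and 95.2 CPM in controls. It fell by 0.76 on the log2 scale (SE 0.12, adjusted p = 0.0271 in edgeR), but by 0.17 once block and length trend were both fitted (adjusted p = 0.112), and its transcripts average 12651 nt. The higher one was Ndg, the nidogen gene, whose product links laminin and collagen IV networks, at 1.95, 1.70 and 1.32 CPM after H2O2 and 0.296, 0.502 and 0.332 CPM in controls. Ndg rose by 2.12 (SE 0.32, adjusted p = 0.0205 in edgeR) and was called with block and length trend both fitted (2.36, adjusted p = 0.00158), from a level of 0.31 to 0.44 TPM after H2O2 and 0.08 to 0.12 TPM in controls. It lies 2.75 kb behind CG12909 on the same strand, a gene at 114 CPM after H2O2 and 119 CPM in controls. The calls of trol and Ndg were lost in at least 5 of the 6 fits that left out a library: trol had adjusted p from 0.0502 to 0.0990 in all 6, and Ndg from 0.0527 to 0.101 in 5. Among those fits, the ones without H2O2 replicate 2, control replicate 2 or control replicate 3 passed no gene at all. The wider list of basement membrane components had 5 of 7 tested, with a median log2 fold change of −0.13. With the block, wb, another laminin alpha chain gene, was also lower (−0.60, adjusted p = 0.0176 in edgeR), at 5.41 ± 1.41 CPM after H2O2 and 8.64 ± 4.54 CPM in controls. Its transcripts average 10600 nt, and with block and length trend both fitted it had −0.067 (adjusted p = 0.859).

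In the other lists, 0 genes passed without the block, and 3 of 10 tested genes for processing and secretion, 1 of 10 receptor and 2 of 5 remodelling genes had an unadjusted p under 0.05 in edgeR, against 14.0% of all genes tested. DESeq2 called 1 gene lower and 0 higher in each of these 3 lists, against 2.96% of all genes lower and 3.81% higher with that tool. The most abundant genes of matrix processing and secretion were Pdi, a protein disulfide isomerase gene (970 ± 188 CPM after H2O2 and 1002 ± 220 CPM in controls, log2 fold change −0.05), and Rab10, a GTPase gene of basement membrane secretion (763 ± 46.7 CPM after H2O2 and 795 ± 63.1 CPM in controls, −0.06). With the block, 3 of 10 genes of that list were lower and 1 higher, against 12.8% of all genes tested lower and 8.99% higher. One of the lower genes was Tango1, needed to export collagen from the endoplasmic reticulum and named after its values were seen. Tango1 had 108, 89.4 and 94.8 CPM after H2O2 and 148, 132 and 124 CPM in controls (−0.47, adjusted p = 0.000819), and was also called with block and length trend both fitted (−0.24, adjusted p = 0.0361). In that last fit 1 gene of the list was called lower and 1 higher, against 1.62% of all genes tested lower and 5.99% higher. The higher one was Loxl1, a lysyl oxidase-like gene at 2.98 ± 0.370 CPM after H2O2 and 1.48 ± 0.646 CPM in controls (0.97, adjusted p = 0.0407). Among receptors, mys, the integrin beta PS subunit gene, had 552 ± 119 CPM after H2O2 and 706 ± 211 CPM in controls (−0.36, adjusted p = 0.689), and Dg, the dystroglycan gene, 215 ± 14.5 CPM after H2O2 and 287 ± 34.7 CPM in controls (−0.42, adjusted p = 0.167). With the block 3 receptor genes, mys and Dg among them, were lower and 0 higher, and 0 were called once the length trend was removed as well. Of the remodelling genes, the metalloproteinase genes Mmp2 (376 ± 84.8 CPM after H2O2 and 455 ± 155 CPM in controls, −0.28) and Mmp1 (221 ± 104 CPM after H2O2 and 356 ± 315 CPM in controls, −0.69) were the most abundant. With the block, 1 gene of this list was higher (Timp, a metalloproteinase inhibitor gene, 1.03) and 1 lower (AdamTS-A, −0.67), and 0 were called with block and length trend both fitted. Mmp1 ranged from 101 to 708 CPM among controls alone, and without control replicate 2 its fold change was 0.29. Over the 4 lists, the median log2 fold change was −0.24 without the block and −0.052 with block and length trend both fitted.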

How the data were processed

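Per the submitters' processing notes, reads were handled with STAR 2.4.0j and RSEM 1.2.21 on genome build dm6. The library kit was stranded and selected poly(A) RNA, per the labels' protocols. The deposited tables hold, per the file headers, expected counts, TPM values, gene lengths and the posterior SD of each count. The deposited expected counts were rounded and tested with edgeR 4.0.16 (R 4.3.3; filterByExpr, TMM, robust quasi-likelihood F test, two-sided, group as the only term), and a Benjamini-Hochberg adjusted p under 0.05 over all 8955 genes tested was called. Standard errors were taken as the log2 fold change over √F. The kept genes held 99.975% of counts. CPM values are expected counts over TMM-scaled library totals. The deposited TPM values served for levels and ratios, and in limma 3.58.1 on log2(TPM + 1) and log2(TPM + 0.1), a scale that understates changes of low genes.

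Deviations from the group means correlated between groups by 0.717 in number 1, 0.518 in number 2 and 0.601 in number 3, so the numbers were read as pairing the libraries, a pairing that comes from the data and not from the labels. No libraries were duplicates (chi-square per degree of freedom 48.7 to 229). The length trend was a lowess (span 0.3) of each library's log2 CPM deviation on log2 length, used as an offset. DESeq2 1.42.0, RLE scaling, other filters and leaving out each library were further alternatives. Fits were tested on simulated counts. Symbols, positions and transcripts came from Ensembl 115 (BDGP6.54, dm6 coordinates), which matched 16419 of 16451 genes, and the lengths in the files lay within its transcript lengths for all 10 genes.

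The sum over SP555 and CG14042 was added after seeing the data. The matrix genes and lists were chosen with earlier results of these data known. Named genes were the 10 matrix genes, called downstream neighbours, and from each related list the 4 called genes with the smallest p or, with none called, the 2 with the highest TPM. Other genes are said to be named after their values were seen, or stand in a marker list. wb, eater, elav, cher, brp, Loxl1, Timp, AdamTS-A, CG31051 and CG12909 were also named after their values were seen.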

Additional observations from a re-analysis of the deposited data

How the results depend on the processing

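The count of matrix genes called lower was 1 with the group as the only term, 7 with the replicate block, 4 by DESeq2, and 0 with the length trend removed, with or without the block. It was 0 to 2 over the fits that left out a library. With H2O2 replicate 2 left out, edgeR called 0 genes of the whole table (891 had an unadjusted p under 0.05), as it did on leaving out either control replicate 2 or control replicate 3 (1054 each). RLE scaling, both other filters and limma kept the count at 1. No fit called a matrix gene higher. The median log2 fold change of the 10 genes was −0.35, −0.011 with the length trend removed, and −0.012 with the block added to that. It lay between −0.44 and −0.26 over the fits that left out a library.

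Of the 30 related matrix genes tested, 1 was lower and 1 higher. Shares of all genes tested called in the same direction are given in brackets. The lower count was 9 with the replicate block (12.8%), 4 of 34 by DESeq2 (2.96%) and 0 with the length trend removed (0.112%). It was 0 in all 6 fits that left out a library. The higher count was 3 with the replicate block (8.99%) and 2 with both the block and the length trend (5.99%). It was 0 by limma on log2(TPM + 1), and 0 to 1 with a library left out. Of the downstream genes, 2 were higher, or 0 on requiring 50 counts in 3 libraries, which removed them, and 0 to 2 with a library left out.

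Signs turned for Pxn with the length trend removed (0.10, and 0.043 with the block), without H2O2 replicate 3 (0.11) and without control replicate 1 (0.0018), in a range of −0.39 to 0.11 with a library left out. They turned for Ppn (0.28, and 0.30 with the block), vkg (0.055, and 0.044 with the block) and Tig (0.055, and 0.044 with the block) with the length trend removed, and for SPARC without H2O2 replicate 2 or control replicate 1 (−0.037 and −0.041, in a range of −0.041 to 0.28). Pdi turned without H2O2 replicate 2, H2O2 replicate 3 or control replicate 1 (range −0.22 to 0.14), and Mmp1 without control replicate 2 (range −1.13 to 0.29). None of these was called with the group as the only term, while vkg and Tig, called with the block alone, lost both call and sign with the length trend removed as well. The cause was not tested. With a library left out, the log2 ratio of LanB2 over LanB1 differed by −0.043 to 0.036 and the length of Ppn by −16.1 to 27.3 nt. The other ratios, and the lengths of LanB1, Col4a1 and Pxn, kept their direction with a library left out, within replicate numbers, and with effective lengths. The matrix genes had 2030 (Ppn) to 223935 (Hml) counts per library, so the spread between libraries, not depth, limits these comparisons.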
